A study of Mus musculus with 12 samples.

Results

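Muscle progenitors of the head were set against muscle progenitors of the trunk over all 12 arrays of the series, 6 of head and 6 of trunk, with 2 arrays of each region at each of 3 stages, embryonic day 9.5 (E9.5), E10.5 and E11.5. The head and the trunk samples all came from ICR mouse embryos carrying Myf5Cre and RosaYFP, and in both regions cells positive for the yellow fluorescent protein were sorted from dispersed tissue. Myf5Cre acts in cells that switch on Myf5, a muscle determination gene, and the label stays in their descendants whatever those become, so the sorted cells are defined by their history and not by present expression of a muscle gene. Whether replicate arrays came from different embryos, litters or pools is not labelled, and the p-values below therefore measure the spread between these samples and nothing wider. The question was which transcripts differed between the regions at every stage, leaving aside Hox genes and the known regulators of pharyngeal and somitic mesoderm.

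Trunk muscle forms from somites, segmented blocks of mesoderm whose position along the body axis is written in their Hox genes. Most head muscle forms from unsegmented pharyngeal mesoderm, which lies in front of the Hox-expressing domain and shares its origin with part of the heart. Head and trunk progenitors use different upstream regulators and then converge on the same myogenic factors, so that regional transcripts outside those regulators include signalling receptors, matrix genes and metabolic enzymes. In sorted bulk samples fewer cells of a type and less RNA per cell cannot be told apart.

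The median probe set signal lay between 108.6 and 110.4 intensity units on the 12 arrays, and the arrays of a group correlated with Pearson r of 0.957 to 0.981 across genes, which are not independent replicates. Replicate 1 of E10.5 stood apart in both regions for Xist, the RNA that coats the inactive X chromosome: 163 units in head and 82.6 in trunk, against 3790 to 8801 on the other 10 arrays. Without these 2 arrays 264 genes outside the excluded regulators met the definition of a kept difference given below, against 375 with them, and 245 genes were in both sets. Of the 8 muscle progenitor markers tested, Msc was higher and Myog and Pax3 lower in head over the mean of the stages, although Myog was not lower at E11.5 (log2 0.58; F test of change with stage, adjusted p = 0.0372). Their summed signal was 1774 to 2313 in head and 2544 to 3119 in trunk at E9.5, 5187 to 5311 in head and 3303 to 3813 in trunk at E10.5, and 10279 to 10528 in head and 5254 to 5348 in trunk at E11.5. This sum includes Msc, itself an excluded head muscle regulator. Msc alone gave 1674 and 2194 units in head and 309 and 212 in trunk at E10.5. At E11.5 it gave 3557 and 3662 in head and 914 and 619 in trunk. The higher head sum at E10.5 therefore cannot be read as more signal of the other markers. At E11.5 the gap between the sums was wider than the gap in Msc, so the other markers together also gave more signal in head. Among them Myog (1581 and 1318 units in head, 825 and 1127 in trunk) and Cdh15 (432 and 486, against 336 and 371) were higher at E11.5. Pax3 was lower at that stage (306 and 376 in head, 512 and 639 in trunk).

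A difference counted as kept when 3 conditions held. The gene passed limma's test over the mean of the 3 stages (Benjamini-Hochberg adjusted p below 0.05 over all 7721 genes tested), both head arrays lay on the same side of both trunk arrays at each stage, and the brighter region's mean lay above the array median at each stage. Over the mean of the stages 808 genes (10.5%) passed, 529 higher in head (6.85%) and 279 lower (3.61%), and 411 genes (5.32%) were kept, 270 of them higher in head (3.50%) and 141 lower (1.83%). For comparison, the head and trunk arrays lay apart in 1 direction at every stage for 647 genes (8.38%), with no test applied. Of the 397 genes that passed but were not kept, 322 had head and trunk arrays that overlapped or lay the other way at a stage, most often at E11.5 (177 genes), and 75 were too dim at a stage. Hox genes and the pharyngeal, head muscle, somite and limb regulators supplied 36 of the kept genes, 10 higher and 26 lower in head, and are not described further. The other 375, 260 higher and 115 lower in head, are the subject of what follows. Without trunk E10.5 replicate 2 the 808 genes became 534 and the 375 became 300.

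The strictest reading asked for an adjusted p below 0.05 at each single stage, where only 2 arrays a region enter each difference. It left 47 genes (0.609%), all of them among the kept, of which 20 were excluded regulators and 27 were not. Leaving out 1 array at a time gave 11 (trunk E11.5 replicate 2 left out) to 28 (head E10.5 replicate 2 left out) in place of 27, and leaving out both E10.5 replicate 1 arrays gave 11. The single stages called 457 genes at E9.5 (5.92%), 349 at E10.5 (4.52%) and 160 at E11.5 (2.07%). Of the 27 genes, 15 were higher in head. They included the transcription factors Runx1, Sox17 and Lmo2, the receptors Kdr, Flt4 and Plxnd1, and the junction protein Cldn5. The others were S100a10 of the S100 family, the actin bundler Pls1, the thyroid hormone-binding Crym, and Tmem30b, Sel1l3, Abcg1, Rsad2 and Klhl13. The 12 lower in head were the secreted factors C1qtnf3, Ntn1 and Dlk1, the zinc finger factor Zic4, the cell surface protease Fap, the growth factor receptor Pdgfra, the sorting receptor Sorl1, the adaptors Skap2 and Sh3gl3, and the enzymes Adh1, Scd1 and Hs3st3a1.

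**Figure D1:**
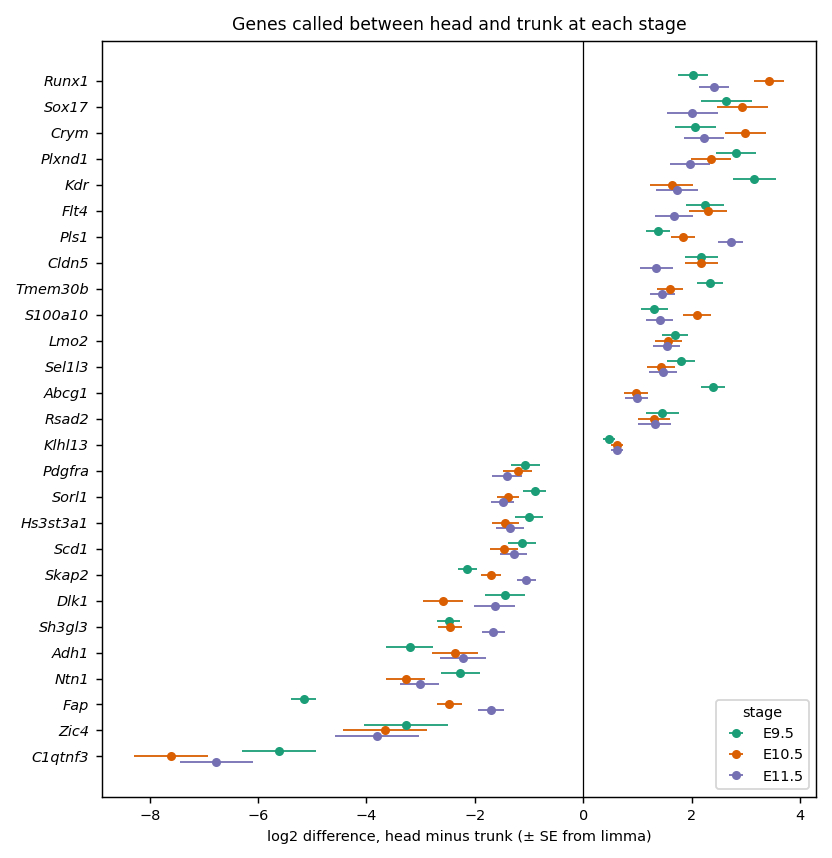
Log2 difference, head minus trunk, on the x axis for the 27 genes outside the excluded regulators that passed limma's test at each single stage, 1 gene per line, 1 point per stage and bars for the SE from limma. The 15 genes right of 0 are higher in head at all 3 stages and the 12 left of 0 are lower, with C1qtnf3 farthest left.

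The most negative value among the kept genes outside the excluded regulators was that of C1qtnf3, a secreted relative of the complement component C1q that is made by growing skeletal tissue. It gave 1.99 and 7.53 units in head at E9.5, against 102 and 349.7 in trunk. At E10.5 it gave 4.93 and 10.6 in head, against 1366 and 1446 in trunk, and at E11.5 12.2 and 15.7 in head, against 1419 and 1609 in trunk. All 6 head arrays lay far below the array median, so that its head level is known only as a bound, while the trunk signal was several times higher at the later stages than at E9.5. Its mean log2 difference was −6.66 ± 0.39 (SE from limma, n = 6 arrays a region, adjusted p = 8.56e-07). Because signals below the array median were raised to it before a fold was formed, the fold is a bound: at least 6.78-fold lower in head over the mean, and at least 13.8-fold at E11.5.

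Fap, a membrane-bound serine protease of activated mesenchyme, had 43.0 and 68.1 units in head at E9.5, 475 and 369 at E10.5 and 887 and 703 at E11.5. The trunk arrays gave 2031 and 1850.3, 2438 and 2211, and 2476 and 2670.2 at the same stages. The regions never overlapped, and the head arrays lay higher at each later stage while the trunk arrays stayed within a narrow band. The difference was log2 −5.16 at E9.5, −2.47 at E10.5 and −1.70 at E11.5, and it changed with stage by limma's F test (adjusted p = 0.00115). Both head arrays of E9.5 lay below the array median, so the size of that value rests on dim signals, and its fold is a bound of at least 17.6. Col14a1, a fibril-associated collagen, did the opposite. Its head arrays stayed between 81.6 and 148 units, while the trunk arrays gave 134 and 219 at E9.5, 501 and 600.0 at E10.5, and 1170.4 and 1344 at E11.5. Its difference was log2 −0.87, −2.24 and −3.55 at the 3 stages in order (F test adjusted p = 0.0273). Head signal of Col14a1 was above the array median on 2 of 6 arrays, so its fold is a bound too, at least 4.24 over the mean. Fmod, a small proteoglycan that binds collagen fibrils, had a median of 70.6 units in head (3.80 to 115) and of 387 in trunk (274 to 804), at least 4.08-fold lower in head (log2 −3.33 ± 0.47, adjusted p = 0.000642; −2.22 by the other probe set nearest to 0).

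Of 73 extracellular matrix genes tested 8 were higher in head (11%, against 6.85% over all genes tested) and 9 lower (12.3%, against 3.61%). The other 56 did not pass, and the median log2 difference was −0.04 against −0.00 over all genes tested. Of the kept members 6 were lower and 1 higher in head. They were C1qtnf3, Col14a1, Fmod, Col4a5 (−1.09 ± 0.14), Col1a2 (−0.74 ± 0.17) and the basement membrane linker Nid2 (−0.44 ± 0.12) on the lower side, and the membrane-bound collagen Col13a1 (0.94 ± 0.13) on the higher side. Col1a2, Nid2 and Col13a1 were named after their values were seen.

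Growth factor receptors of the PDGF family were lower in head. Pdgfra, the receptor that mesenchymal cells use for PDGF-A, gave 991 and 942 units in head at E9.5, 1696 and 826 at E10.5 and 1335 and 985 at E11.5, against 2047 and 1997, 3007 and 2499, and 3243 and 2827 in trunk. No head array reached the lowest trunk array, and every array was above the median, so its 2.34-fold difference is measured and not a bound (log2 −1.23 ± 0.16, adjusted p = 0.000379). Its difference was also among the steadiest: −1.07, −1.21 and −1.40 at the 3 stages. Pdgfrb was 1.55-fold lower (log2 −0.64 ± 0.14, adjusted p = 0.0107), and the ligand Pdgfb was at least 1.59-fold higher in head (1.49 ± 0.25, adjusted p = 0.00222). In the list of growth factors 12 of 40 tested genes were higher in head (30%, against 6.85% over all genes tested) and 3 lower (7.5%, against 3.61%). The third lower one was the chemokine Cxcl12 (−0.73 ± 0.10), and the list's median was 0.15. Pdgfrb, Pdgfb and Cxcl12 were named after their values were seen.

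Kept guidance genes lay on both sides, 2 higher and 5 lower in head. Ntn1, the secreted axon guidance cue netrin 1, had 318 and 245 units in head at E9.5, 144 and 165 at E10.5, and 107 and 168 at E11.5. Its trunk arrays gave 959.6 and 1883, 1132 and 1985, and 1313 and 898. Every head array thus lay below every trunk array, with head highest at E9.5, and the difference was log2 −2.85 ± 0.21 over the mean (adjusted p = 4.59e-06, at least 7.21-fold). Epha3, an ephrin receptor, was lower in head although both regions showed more of it after E9.5: 74.1 and 152, 982 and 778, and 525 and 508 units in head, against 185 and 623, 2034 and 2059.7, and 2594 and 2910.3 in trunk (log2 −1.77 ± 0.26; −2.50 by another probe set). Its relative Epha7 was 2.38-fold lower in head (log2 −1.25 ± 0.21, adjusted p = 0.00213). Of the semaphorins, which mostly repel growing axons and cells, Sema3a (−0.55 ± 0.12) and Sema5a (−1.03 ± 0.24) were lower in head. The 2 kept genes higher in head were Plxnd1, a receptor for semaphorins, with 291 to 835 units in head against 42.4 to 153 in trunk (log2 2.38 ± 0.21, adjusted p = 2.00e-05), and Unc5b, a receptor for netrins (1.04 ± 0.19). Of 36 guidance genes tested 5 were higher in head (13.9%, against 6.85% over all genes tested) and 7 lower (19.4%, against 3.61%). The other 24 did not pass (list median 0.09). Sema3a, Sema5a and Unc5b were named after their values were seen.

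In the Hedgehog pathway the co-receptors that help cells bind Sonic hedgehog were lower in head. Boc gave 78.1 to 246 units in head (median 148) and 383 to 479 in trunk (median 437), at least 2.88-fold lower in head (log2 −1.61 ± 0.18, adjusted p = 0.000119; −0.90 by another probe set). Cdon lay between 7.24 and 95.7 units in head, below the array median throughout, and between 100.4 and 228 in trunk, at least 1.27-fold lower (log2 −1.79 ± 0.38, adjusted p = 0.0100). Both Boc and Cdon also act in myoblast adhesion and differentiation. Gas1, the other co-receptor of this kind, was lower as well (−0.54) but was not kept, and Hhip, which sequesters the ligand, was higher in head (0.65 ± 0.17, adjusted p = 0.0304). These were the 4 genes that passed of 7 tested, 1 higher (14.3%, against 6.85% over all genes tested) and 3 lower (42.9%, against 3.61%). The list's median was −0.04.

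Retinoic acid, made from retinol in steps of oxidation, patterns the trunk, and enzymes of its synthesis were lower in head. Aldh1a2, which makes retinoic acid from retinal, had 20.7 and 168 units in head at E9.5, 147 and 134 at E10.5 and 311 and 121 at E11.5, against 3553 and 1950.5, 1574 and 715, and 549.9 and 838 in trunk. The trunk arrays were highest at E9.5, and the nearest approach was at E11.5, where the higher head array still lay below both trunk arrays. Its mean difference was log2 −3.40 ± 0.45 (adjusted p = 0.000407, at least 7.99-fold), with a call at E9.5 (−5.48, adjusted p = 0.00129) and none at E10.5 (−2.92, adjusted p = 0.0539) or E11.5 (−1.81, adjusted p = 0.380). Adh1, an alcohol dehydrogenase that oxidises ethanol and retinol, had 35.2 to 50.8 units in head, below the median on every array, and 169 to 546 in trunk (log2 −2.60 ± 0.25, adjusted p = 3.65e-05, at least 2.54-fold). Dhrs3, which reduces retinal back to retinol, was at least 1.37-fold lower in head (−0.79 ± 0.18). The retinol dehydrogenase Rdh10 (−0.82 ± 0.13) and the binding protein Crabp2 (−0.69 ± 0.20) passed over the mean but were not kept, because a head array exceeded a trunk array at E11.5 in each. On the higher side the receptor Rxrg had 118 to 242 units in head and 5.56 to 106 in trunk (2.18 ± 0.28, adjusted p = 0.000361, at least 1.44-fold). Of 15 genes of the list 2 were higher in head (13.3%, against 6.85% over all genes tested) and 4 lower (26.7%, against 3.61%). The list's median was −0.17. Dhrs3 and Crabp2 were named after their values were seen.

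Transcription factors outside the excluded lists were kept on both sides. Zic4, a zinc finger factor, had 6.28 to 47.2 units in head and 145 to 405 in trunk, at least 2.58-fold lower (log2 −3.58 ± 0.45, adjusted p = 0.000309). Meis1, a homeodomain partner of Hox and Pbx proteins, gave 416 and 717 units in head at E9.5, 604 and 848 at E10.5 and 816 and 348 at E11.5, against 1991 and 1494, 1792 and 1759, and 1921 and 2467 in trunk. Its 3.17-fold difference was measured on all 12 arrays (−1.67 ± 0.21, adjusted p = 0.000330). The zinc finger homeobox gene Zfhx4 (−1.82 ± 0.17, at least 2.79-fold), the zinc finger gene Tshz1 (−0.93 ± 0.12) and the forkhead gene Foxd1 (−1.27 ± 0.18, 2.41-fold) were also lower in head, as was Bnc1, a zinc finger factor best known from squamous epithelium and germ cells. Bnc1 had 131 to 281 units in head and 276 to 1151 in trunk, 4.16-fold lower in head (−2.06 ± 0.19, adjusted p = 3.25e-05), although the lowest trunk array, at E9.5, lay within the range of the head arrays of E11.5. Over all genes tested 6.85% were higher and 3.61% lower in head. Of 30 homeobox genes outside the excluded lists 6 were higher (20%) and 4 lower (13.3%) in head, with 1 and 4 kept. Of 86 other transcription factors 20 were higher (23.3%) and 4 lower (4.65%), with 10 and 4 kept.

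Skap2, a cytoplasmic adaptor that links Src family kinases to the actin cytoskeleton, gave 575 and 486 units in head at E9.5, 623 and 540.3 at E10.5 and 505 and 463 at E11.5, against 2205 and 2466, 1786 and 1989, and 1076 and 935 in trunk. The head arrays stayed level while the trunk arrays were lower at each later stage, and the difference was log2 −2.14, −1.70 and −1.05 at the 3 stages (mean −1.63 ± 0.10, adjusted p = 1.23e-06, 3.10-fold lower in head). By the F test that change with stage did not pass (adjusted p = 0.144).

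Several imprinted genes were lower in head. Dlk1, a membrane protein related to the Notch ligands and expressed from the paternal allele, had 77.3 to 239 units in head and 450.4 to 845 in trunk (log2 −1.89 ± 0.22, adjusted p = 0.000162, at least 3.49-fold). Meg3, the maternally expressed long RNA of the same imprinted domain on chromosome 12, was 1.57-fold lower in head (−0.65 ± 0.09, adjusted p = 0.000626), and 4 further probe sets of Meg3 gave −1.10 to −1.47. Nap1l5 (−1.14 ± 0.17, at least 2.18-fold) and Mest (−0.41 ± 0.06, 1.33-fold) were lower too, while Nnat was higher in head (0.70 ± 0.14, 1.63-fold). Of 27 imprinted genes tested 1 was higher (3.7%, against 6.85% over all genes tested) and 6 lower (22.2%, against 3.61%). The other 20 did not pass, and the list's median was −0.10. Rian, from the Dlk1 and Meg3 domain, and Peg3 passed over the mean (−1.43 and −0.25) without being kept. Nnat, Rian and Peg3 were named after their values were seen.

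Enzymes of lipid and sterol synthesis formed another lower group. Scd1, which puts the double bond into newly made fatty acids, gave 756 and 418 units in head at E9.5, 707 and 513 at E10.5 and 492 and 489 at E11.5, against 1213 and 1247, 1655 and 1660.4, and 1227 and 1164 in trunk. The regions were apart at every stage and all arrays above the median, and the difference of 2.45-fold was steady (log2 −1.29 ± 0.15, adjusted p = 0.000146; stage values −1.13, −1.46 and −1.28). The list of lipid, sterol and one-carbon metabolism held 31 tested genes. In head 1 was higher (3.23%, against 6.85% over all genes tested) and 9 lower (29%, against 3.61%). The other 21 did not pass, and the median was −0.10. The kept ones beside Scd1 were the glycine-cleaving enzyme Gldc (−0.77 ± 0.13) and 3 enzymes of cholesterol synthesis, of which Cyp51 was named after its value was seen.

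Those 3 were Idi1, which isomerises the isoprenoid building block, Cyp51, which demethylates lanosterol, and Sc5d, which desaturates the sterol ring. Idi1 had 1216 and 1075 units in head at E9.5, 1746 and 2098 at E10.5 and 1207 and 1676 at E11.5, against 1900.1 and 1900.1, 3710.2 and 3316, and 2673 and 1685 in trunk. Head lay below trunk throughout, but at E11.5 only just, by the higher head and the lower trunk array. The differences were small: 1.66-fold lower in head for Idi1 (log2 −0.73 ± 0.13, adjusted p = 0.00310), 1.55-fold for Sc5d (−0.64 ± 0.11, adjusted p = 0.00268) and 1.29-fold for Cyp51 (−0.37 ± 0.11, adjusted p = 0.0461). Msmo1, a sterol methyl oxidase outside the list and named after its value was seen, was 1.53-fold lower (−0.61 ± 0.15, adjusted p = 0.0181). Over 12 tested genes of cholesterol synthesis and its regulators, a set put together after their values were seen, 6 were lower and 0 higher in head. Over all genes tested 3.61% were lower and 6.85% higher. Of the 12 genes 10 had a value below 0, and the median was −0.37. Since the set was chosen with its values known, these counts are no test of the pathway. The enzymes Hmgcs1 (−0.03), Fdps (−0.39), Fdft1 (0.04) and Dhcr7 (0.06) did not pass (adjusted p = 0.735, 0.458, 0.830 and 0.758). Neither did the regulators Srebf1 (−0.11, adjusted p = 0.641) and Srebf2 (−0.05, adjusted p = 0.889).

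Genes of this pathway are known to be switched on by SREBP factors, which bind sterol elements near the start of transcription, often beside a CCAAT box bound by NF-Y. The 250 bases before the start of the 4 kept sterol genes are shown. These genes were picked because each was kept and lower in head, and whether they share a regulator was not tested. They are RefSeq sequence of mouse build GRCm38.p6, read 5′ to 3′ on the strand of the gene, with each CCAAT, or its other strand ATTGG, in capitals.
Idi1, chr13:8885356-8885605, plus strand: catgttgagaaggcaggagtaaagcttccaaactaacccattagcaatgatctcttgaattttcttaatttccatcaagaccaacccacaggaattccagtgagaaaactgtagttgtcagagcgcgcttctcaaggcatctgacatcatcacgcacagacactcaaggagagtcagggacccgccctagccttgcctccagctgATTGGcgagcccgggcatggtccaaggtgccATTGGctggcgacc
Cyp51, chr5:4104698-4104947, minus strand: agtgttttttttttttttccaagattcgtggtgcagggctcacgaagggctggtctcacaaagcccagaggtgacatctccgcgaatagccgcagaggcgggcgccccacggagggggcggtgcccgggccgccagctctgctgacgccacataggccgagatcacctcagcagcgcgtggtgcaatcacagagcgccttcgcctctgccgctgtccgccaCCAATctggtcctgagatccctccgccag
Msmo1, chr8:64733579-64733828, minus strand: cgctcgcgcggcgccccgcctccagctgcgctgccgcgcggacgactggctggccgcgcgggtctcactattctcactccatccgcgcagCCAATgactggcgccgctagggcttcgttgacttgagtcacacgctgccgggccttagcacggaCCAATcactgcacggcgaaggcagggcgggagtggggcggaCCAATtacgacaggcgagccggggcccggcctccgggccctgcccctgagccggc
Sc5d, chr9:42264301-42264550, minus strand: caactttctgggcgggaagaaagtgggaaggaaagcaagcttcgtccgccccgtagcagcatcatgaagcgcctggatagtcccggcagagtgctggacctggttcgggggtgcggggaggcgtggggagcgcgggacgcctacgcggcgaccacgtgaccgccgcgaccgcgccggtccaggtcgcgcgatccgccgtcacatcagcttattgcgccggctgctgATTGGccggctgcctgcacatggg
Idi1 held 2 matches, Cyp51 1, Msmo1 3 and Sc5d 1. The letters CCAAT occurred on either strand in 33.8% of 32851 promoter windows of the same length. The sterol element letters TCACNCCAC, whose other strand reads GTGGNGTGA, occurred in none of the 4 and in 1.05% of all windows, and a match or its absence describes these letters only.

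**Figure D2:**
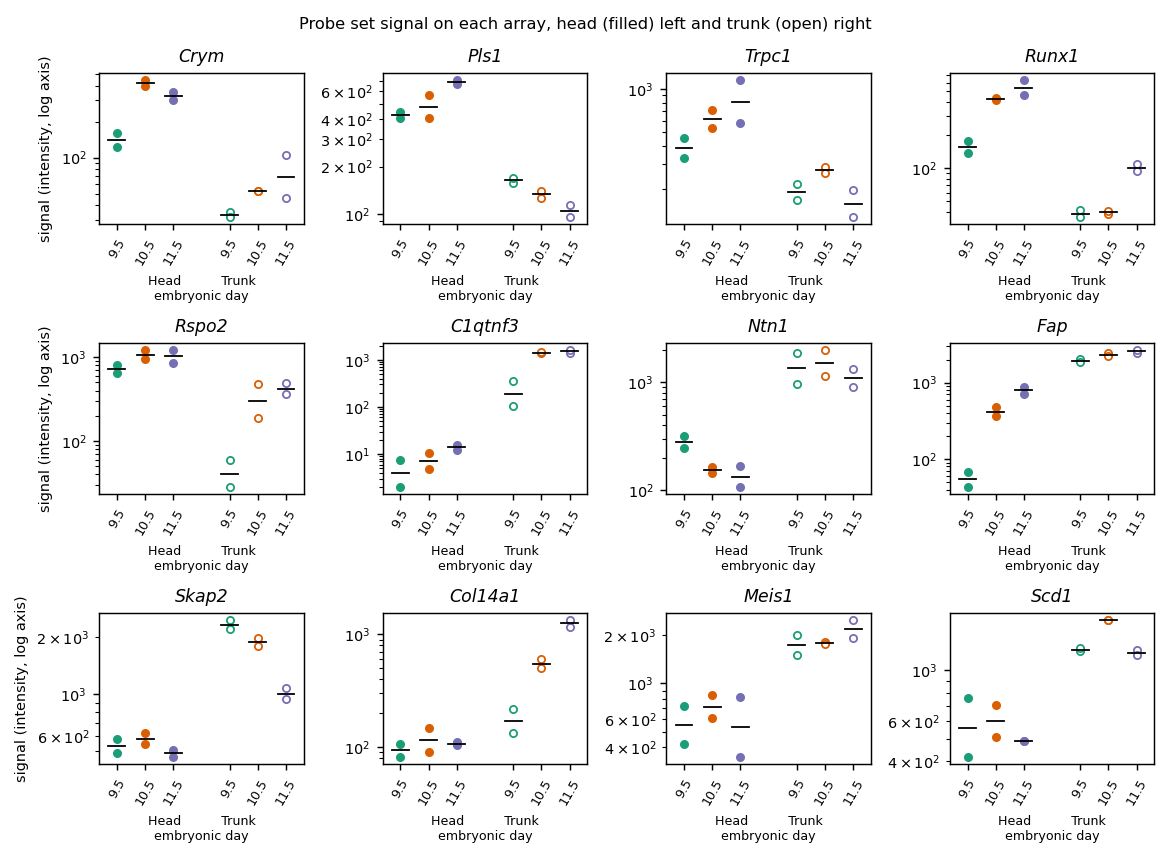
Signal of single arrays (y axis, intensity units, log scale) by embryonic day (x axis) for 12 kept genes, head arrays left and filled, trunk arrays right and open, with a black bar for the mean log2 signal of the 2 arrays. Head and trunk points of a day do not overlap in any panel, and the head points of C1qtnf3 lie between 1.99 and 15.7 units.

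On the higher side, Runx1, a transcription factor of blood formation that is also active in other embryonic cells, had 179 and 137 units in head at E9.5, 417 and 436 at E10.5 and 459 and 634 at E11.5. Its trunk arrays gave 41.4 and 36.0, 38.8 and 40.6, and 108 and 94.9, all under the array median. Head signal was higher at each later stage, and the mean difference was log2 2.62 ± 0.16 (adjusted p = 9.80e-07, at least 3.01-fold). A second probe set of Runx1 gave 1.41. Crym, which binds thyroid hormone in the cytoplasm, gave 122 and 159.9, 444 and 394, and 300.4 and 350.4 units in head at the 3 stages, against 34.8 and 31.8, 52.9 and 52.1, and 46.0 and 105 in trunk (2.43 ± 0.21, adjusted p = 2.05e-05, at least 2.43-fold). Nr5a2, an orphan nuclear receptor, had 206 to 482 units in head and 27.6 to 136 in trunk (2.32 ± 0.26, adjusted p = 0.000118, at least 2.77-fold), and its 2 other probe sets gave 1.68 and 2.05.

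Among the genes higher in head outside the excluded regulators the largest log2 value belonged to Kazald1, a secreted protein related to the insulin-like growth factor binding proteins. Its head arrays gave 619 and 323 units at E9.5, 159 and 244 at E10.5 and 113 and 130.4 at E11.5, and its trunk arrays 6.16 to 43.8 over the 3 stages. Since trunk lay below the median on all 6 arrays, the log2 size rests on signals under that floor, and the fold was at least 2.01 (log2 3.51 ± 0.44, adjusted p = 0.000277). Rspo2, a secreted amplifier of Wnt signals, had 656 and 801 units in head at E9.5, 1212 and 953 at E10.5 and 857 and 1216 at E11.5, against 59.0 and 28.3, 479 and 191, and 364 and 488 in trunk. Trunk gained signal after E9.5 and stayed below head (2.42 ± 0.24, adjusted p = 5.58e-05, at least 3.85-fold). In the Wnt list Rspo2 was the only higher gene of 31 tested (3.23%, against 6.85% over all genes tested), beside 3 lower ones (9.68%, against 3.61%). Of the lower ones the Wnt feedback inhibitor Nkd2 was kept (−2.18 ± 0.30, at least 2.31-fold). Igfbp2 (0.99 ± 0.12, 1.99-fold) and Igfbp3 (1.15 ± 0.16, 2.22-fold), which bind insulin-like growth factors, were higher in head, Igfbp3 being named after its value was seen.

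Pls1, an actin-bundling plastin, gave 409 and 446 units in head at E9.5, 404 and 570.4 at E10.5 and 706 and 669 at E11.5, against 158 and 169, 127 and 139.9, and 114 and 95.8 in trunk. Head signal was highest and trunk signal lowest at E11.5 (1.98 ± 0.13, adjusted p = 1.44e-06, at least 3.86-fold). Trpc1, a cation channel, had 333 to 1152 units in head and 128 to 287 in trunk, 2.87-fold higher in head (1.52 ± 0.19, adjusted p = 0.000326). S100a10, the partner of annexin A2 at the membrane, had 984 to 2383 units in head and 333 to 801 in trunk, 3.05-fold higher (1.61 ± 0.15, adjusted p = 2.53e-05), and Anxa2 itself was 2.07-fold higher with stage values of 1.21, 0.94 and 1.0. Tmem30b, a subunit of lipid flippases, had 552 to 846 units in head and 122 to 264 in trunk, 3.49-fold higher (1.80 ± 0.13, adjusted p = 5.13e-06). Grb14, an adaptor that dampens insulin receptor signals, had 325 to 1134 units in head and 117 to 221 in trunk, 3.30-fold higher (1.72 ± 0.22, adjusted p = 0.000351). The paired-type homeobox gene Prrx2 had 355 to 997 units in head and 119.7 to 333 in trunk, 3.09-fold higher (1.63 ± 0.18, adjusted p = 0.000106). Every head array of Pls1, Trpc1, S100a10, Tmem30b, Grb14 and Prrx2 exceeded every trunk array, whereas for Anxa2 the ranges over the stages overlapped, with 746 to 3493 units in head and 425 to 1939 in trunk.

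Many kept genes on the higher side are known from cell types other than muscle. Sox17, Kdr, Flt4, Cldn5, Cd93, Cd34, Aplnr and Lmo2 are all known from endothelium, and their differences were 1.60 to 2.60 in log2 value. Kdr, a VEGF receptor, had 918 and 1261 units in head at E9.5, 996 and 1148 at E10.5 and 789 and 461 at E11.5, against 128 and 113, 433 and 275, and 282 and 116 in trunk (2.18 ± 0.23, 4.52-fold). Aplnr, the apelin receptor, was 4.58-fold higher in head (2.19 ± 0.33), with 1055 to 5488 units against 185 to 1232 in trunk, and by 1.07 in log2 value by its second probe set. Of the endothelial markers 13 of 14 tested were higher in head (92.9%, against 6.85% over all genes tested) and 8 were kept (Pecam1 and Erg were not tested). Their summed signal was 2396 to 6312 in head and 1059 to 1934 in trunk, with no overlap. Their part in the differences of Sox17, Runx1, Lmo2 and the other genes named here was not tested.

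Other marker lists moved as well. Of 16 neuronal markers 13 were higher in head (81.2%, against 6.85% over all genes tested) and 1 lower (6.25%, against 3.61%), with 9 kept. Their sum was 8223 to 21976 in head and 1952 to 12822 in trunk. Neurod1, a neurogenic factor, was the kept gene of this list with the largest value (2.41 ± 0.16). Of 13 epithelial markers 9 were higher (69.2%) and 1 lower (7.69%), with 5 kept. Their sum was higher in head at E9.5 (12318 to 13573 in head and 7531 to 7576 in trunk) and not at E11.5 (5369 to 5902 in head and 5863 to 6373 in trunk). The pioneer factor Foxa1, known from epithelium, was 2.88-fold higher in head (1.53 ± 0.26). Of 12 leukocyte entries only 5 were tested, and Ptprc, Tyrobp, Fcer1g, Lyz2, Aif1 and Cd68 were among those not tested. Of the 5 tested, 4 were higher (80%, against 6.85% over all genes tested). Laptm5 (1.93 ± 0.19, but 0.20 by another probe set) and Coro1a (1.07 ± 0.20) were kept. The sum of the 5 was 766 to 2960 in head and 367 to 814 in trunk. The endothelial, neuronal, epithelial and leukocyte lists held 14, 16, 13 and 5 of the 7721 genes tested. Members of these 4 lists made up 24 of the 260 kept genes higher in head and 0 of the 115 lower. The part of these cell types in the other higher genes was not tested. Neural crest (1 of 7 higher), erythroid cells (1 of 6 higher), neural progenitors (2 of 5 lower) and cardiomyocytes (0 of 2) contributed no kept gene. The neural crest sum was nonetheless higher in head at each stage: 3174 to 3670 in head and 2458 to 2473 in trunk at E9.5, 4553 to 4591 and 2751 to 2997 at E10.5, and 5077 to 5240.0 and 4350.2 to 4882 at E11.5. At E11.5 Erbb3 alone gave 3171 and 3669 in head and 1633 and 1501 in trunk, a wider gap than that of the sums. The higher crest sum at E11.5 therefore cannot be read as more signal of the other crest markers. The erythroid sum was 21873 to 25524 in head and 13185 to 14837 in trunk at E9.5, 19018 to 20129 and 9732 to 13567 at E10.5, and overlapped at E11.5. The neural progenitor sum, of 5 tested genes among 10 entries, overlapped at E9.5 and E10.5. At E11.5 it was lower in head, with 1076 to 1116 in head and 3314 to 3324 in trunk. Of 19 housekeeping genes 0 passed, with a list median of −0.03.

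**Figure D3:**
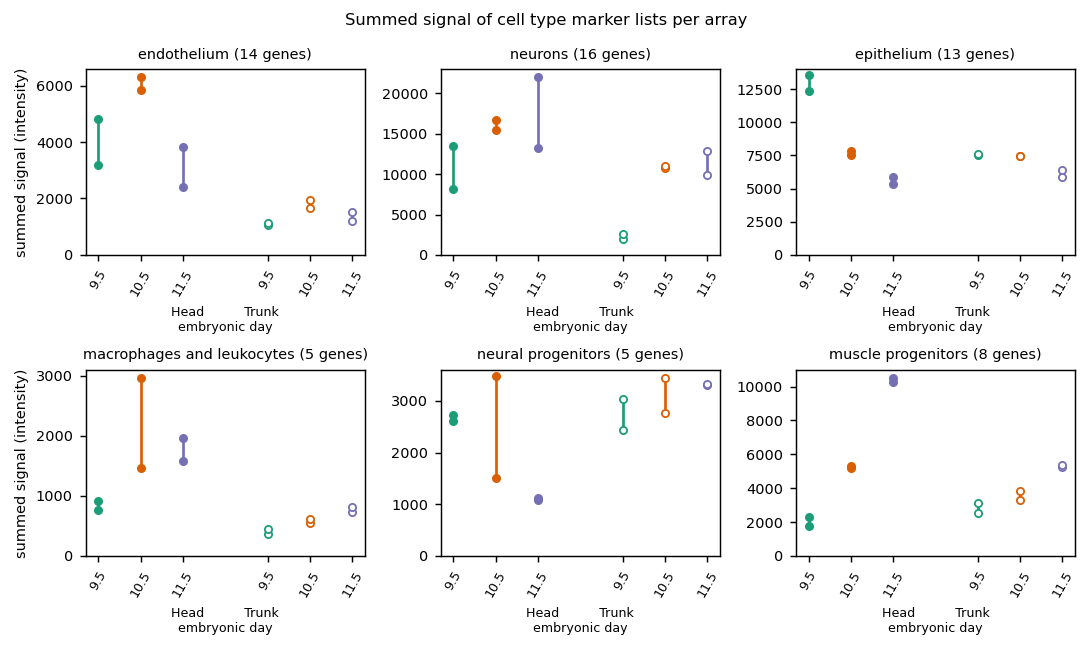
Summed signal of the tested markers of each cell type on each array (y axis, intensity units) by embryonic day (x axis), head arrays left and filled, trunk arrays right and open, arrays of a day joined by a line. Endothelial sums are higher on every head array than on any trunk array, while epithelial sums of the regions lie close at E10.5 and overlap at E11.5.

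Of 35 myogenic factors and muscle genes 4 were higher in head (11.4%, against 6.85% of all genes tested) and 10 lower (28.6%, against 3.61%), with a list median of −0.28 against −0.00, and 3 higher and 2 lower ones were kept. Dystrophin, Dmd, which ties actin to the muscle cell membrane, was 1.96-fold lower in head (−0.97 ± 0.13, adjusted p = 0.000452), and the skeletal actin gene Acta1 at least 2.84-fold lower (−1.65 ± 0.30). Tropomyosin Tpm2 (0.82 ± 0.11), the myocyte enhancer factor Mef2d (0.60 ± 0.12) and the creatine kinase Ckb (0.71 ± 0.17) were higher. The call of Tpm2 depends on the probe set: its others gave 0.07, 0.35 and 0.63, and with suffixed probe sets left out it did not pass (0.07, adjusted p = 0.850). Mef2d and Ckb were named after their values were seen. Of 48 cell cycle genes Ccnd2 alone passed, 1.36-fold lower in head (−0.44 ± 0.07, adjusted p = 0.00139).

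The size of the differences was followed over the stages on each side, and the sides were not tested against each other. Among the 260 genes higher in head the median difference was log2 1.02 at E9.5, 0.90 at E10.5 and 0.68 at E11.5, and the smallest of a gene's 3 values fell at E11.5 in 152 of them. For the 115 genes lower in head the medians were −0.73, −0.71 and −0.76, with the largest value at E9.5 in 37 genes, at E10.5 in 39 and at E11.5 in 39. Over all genes tested the medians were −0.01, −0.01 and 0.02. The marker sums moved with stage too: from E9.5 to E11.5 the neuronal sum was 8223 to 13434 and then 13182 to 21976 in head, against 1952 to 2559 and then 9864 to 12822 in trunk, and the endothelial sum was 3183 to 4799 and then 2396 to 3816 in head, against 1059 to 1129 and then 1203 to 1533 in trunk. Their part in the stage values, like that of the epithelial sum given above, was not tested. A difference of at least log2 1 in size at every stage was found for 46 of the higher and 20 of the lower genes. Signals were above the array median on all 12 arrays for 158 of the higher and 75 of the lower genes, and the dimmer region was under it on all 6 arrays for 20 and 9.

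The steadiest differences, by the spread of the 3 stage values among kept genes with a mean of at least log2 1 in size, included Lmo2 (1.69, 1.57 and 1.54), Rsad2, an antiviral protein induced by interferon (1.46, 1.31 and 1.32), and Sh3gl2, an endophilin of synaptic vesicle recycling (0.91, 1.03 and 1.06). On the lower side were Rin2 (−1.16, −1.24 and −1.14), Tdrd7 (−0.99, −1.20 and −0.92), Nap1l5, Pdgfra and Scd1. By limma's F test the difference changed with stage in 70 genes (0.907%), of which 7 were kept genes outside the excluded lists. Leaving out 1 array at a time moved the count of 70 to between 23, with trunk E9.5 replicate 1 left out, and 107, with head E10.5 replicate 2 left out. In 5 of these, Stk26, Neurod1, Cyp1b1, Capn6 and Tuba4a, head was higher and most so at E9.5. Stk26, a kinase of the Ste20 family, had differences of 2.50, 0.90 and 0.41 (adjusted p = 0.00110), and Cyp1b1, a cytochrome that oxidises steroids and retinoids, 2.68, 1.64 and 0.63 (adjusted p = 0.0141). Another probe set of Tuba4a gave 0.21 over the mean, against 1.10 by the one used. Fap and Col14a1 were the other 2. Stk26, Capn6 and Tuba4a were named after their values were seen.

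**Figure D4:**
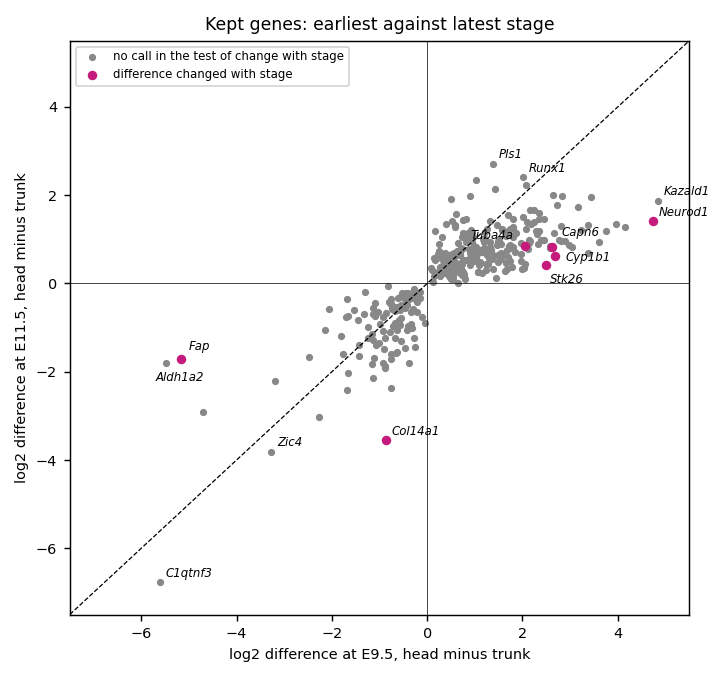
Log2 difference, head minus trunk, at E9.5 (x axis) against E11.5 (y axis), 1 point for each of the 375 kept genes outside the excluded regulators, with the dashed line of equal values. The 7 genes whose difference changed with stage are coloured, and most points right of 0 lie below the line.

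Kept genes were also looked up by their order on the chromosomes. Among 3436 pairs of adjacent genes with both members tested, 25 pairs were both kept, 22 with the same sign and 3 with opposite signs, and leaving out pairs with an excluded regulator left 18, of which 15 had the same sign. A kept gene held 13.3% of the 376 neighbour places beside kept genes, excluded regulators included, against 5.32% of all tested genes. Pls1 and Trpc1 lie side by side on chromosome 9 and were both higher in head. On chromosome 7 Bnc1 lies beside Sh3gl3, an endophilin relative with 93.1 to 411 units in head and 499.6 to 1430.4 in trunk (−2.20 ± 0.13, adjusted p = 8.56e-07, at least 4.46-fold lower in head), and on its other side lies Hdgfl3 (−0.34). Sc5d and Sorl1 (−1.26 ± 0.12, 2.39-fold) are neighbours on chromosome 9. Pdgfra, lower in head, lies next to Kit (1.09 ± 0.14), which lies next to Kdr, both higher in head. Neighbours include members of 1 family (Nefl and Nefm), genes of 1 imprinted domain (Dlk1 and Meg3) and a gene inside another (Nnat within Blcap), and whether one transcript hybridises to its neighbour's probe set was not tested. Hdgfl3, Nefl and Blcap were named after their values were seen.

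**Figure D5:**
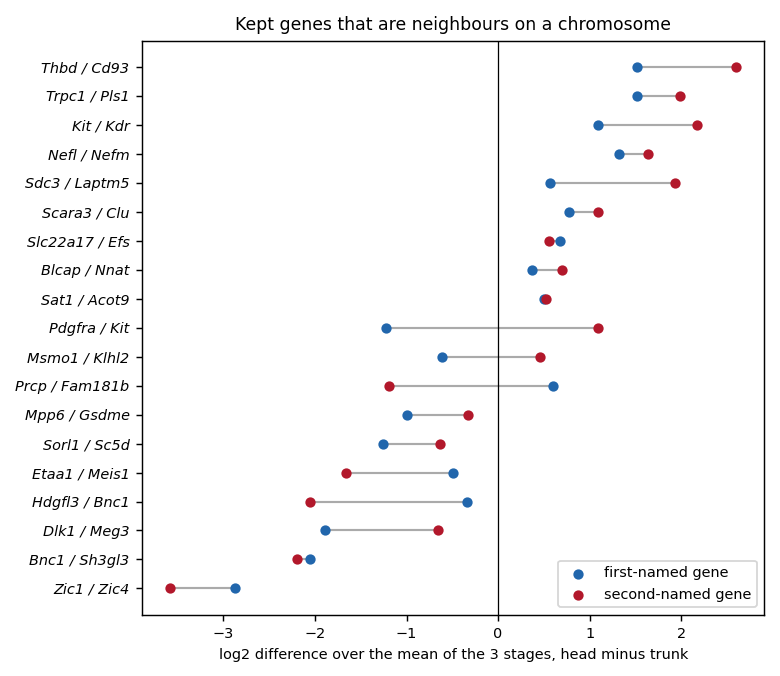
Log2 difference, head minus trunk (x axis), of both genes of 19 adjacent pairs in which both were kept, 1 pair per line joined by a bar: the 18 pairs without an excluded regulator and the pair of Zic1 and Zic4. In 3 pairs, among them Pdgfra and Kit, the genes lie on opposite sides of 0.

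A second probe set served as a check where the array had one. Of the 375 genes 138 had another probe set past the filter, 189 in all, and in 130 of these genes each had the sign of the probe set used. The 8 genes with a probe set of opposite sign were Anp32e, Itsn2, Obsl1, Ppp6c, Rbfox2, Speg, Sptbn1 and Trim2, named after their values were seen, with differences of −0.26 to 0.67 by the probe set used and −0.18 to 0.15 by the other.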

How the data were processed

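Total RNA of the sorted cells was amplified, labelled with biotin and hybridised to an Affymetrix mouse array, per the labels' protocols. The authors deposited 1 signal per probe set and array, an intensity on a linear scale, made with MAS5 and Affymetrix Expression Console per the submitters' processing notes, with no version given. No source used here states a normalization after MAS5. Log2 of the deposited intensities was taken here with no further normalization.

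The 22690 probe sets included 64 controls, which were dropped. The platform's annotation pairs 20380 of the rest with 1 gene each, and these were used, while 691 with several genes and 1555 with no gene were not. Gene symbols were updated through Entrez identifiers for 20351, 29 had no match, and no symbol changed. Probe sets entered the fit when 2 or more of the 12 arrays exceeded their own median, and the brightest probe set stood for its gene, which left 7721 genes. Limma 3.58.1 in R 4.3.3 fitted 1 mean for each of the 6 groups, with an intensity trend. The residual degrees of freedom were 6 and the prior ones 5.87. Contrasts were head minus trunk averaged over stages and stage by stage, with an F test of change with stage. Tests were two-sided, with Benjamini-Hochberg adjustment over all genes at 0.05. For folds, signals below the array median were raised to it, and the fold is called a bound where an array of the dimmer region lay there. The array measures no read depth, so precision is limited by how few arrays there are.

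Named are 15 kept genes of largest and 15 of most negative value, the 10 each way with the largest measured fold, the 10 steadiest, the genes called at each stage, and up to 4 members of smallest p in each list. The groups of genes, the lists and these rules were chosen with earlier results of these data known. Promoter windows came from RefSeq tables of GRCm38.p6, which held 5 of 6 sterol genes looked up, and gene order from RefSeq. Replicate numbers were not used as pairs in the main fit, because the labels state no pairing. Deviations of same-numbered head and trunk arrays correlated at 0.01, −0.00 and −0.10 at the 3 stages. With 2 arrays a group these values cannot settle whether samples were paired, and both E10.5 replicate 1 arrays were low in Xist. Alternatives covered normalization, filter, floor, probe sets, model, replicate block and arrays left out.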

Additional observations from a re-analysis of the deposited data

Results flagged for a closer look

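For 11 of the genes named, the head minus trunk difference itself differed between stages by limma's F test, Benjamini-Hochberg adjusted over all genes. Fap (adjusted p = 0.00115) was lower in head by log2 −5.16 at E9.5, −2.47 at E10.5 and −1.70 at E11.5, and Col14a1 (adjusted p = 0.0273) by −0.87, −2.24 and −3.55. Capn6 (adjusted p = 0.0175; 2.63, 0.96 and 0.83), Cyp1b1 (adjusted p = 0.0141; 2.68, 1.64 and 0.63) and Stk26 (adjusted p = 0.00110; 2.50, 0.90 and 0.41) were higher in head, as were Neurod1 (adjusted p = 0.00172; 4.75, 1.08 and 1.41) and Tuba4a (adjusted p = 0.0236; 2.04, 0.40 and 0.84). The remaining genes were not kept at every stage: Dcx (adjusted p = 0.00286; 4.0, 0.28 and 0.38), Slit3 (adjusted p = 0.0494; 0.23, −3.25 and −1.99), Tgm2 (adjusted p = 0.0335; 1.96, 0.84 and −0.09) and Myog (adjusted p = 0.0372; −2.37, −1.23 and 0.58). In these last 3 genes the sign was not the same at all stages. With 2 arrays a group, no test for single outlying arrays was applied.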

How the results depend on the processing

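The count of genes called over the mean was 808, of kept genes outside the excluded regulators 375, of genes called at each stage 27, and of genes whose difference changed with stage 70. Without both E10.5 replicate 1 arrays, which stand apart in Xist, these were 447, 264, 11 and 32. Genes called at each stage numbered 17 with no filter on low values and 17 with no intensity trend. With a difference of at least log2 1 at every stage, a condition added after seeing the data, 66 genes were kept. Leaving out 1 array at a time gave 534 (without trunk E10.5 replicate 2) to 909 (without head E10.5 replicate 2) genes over the mean, 300 (without trunk E10.5 replicate 2) to 429 (without trunk E11.5 replicate 2) kept, 11 (without trunk E11.5 replicate 2) to 28 (without head E10.5 replicate 2) called at each stage, and 23 (without trunk E9.5 replicate 1) to 107 (without head E10.5 replicate 2) that changed with stage. With replicate number as a block the counts were 766, 352, 28 and 58, and with stage and number as a block 675, 313, 29 and 49. The other alternatives, among them quantile normalization, median centring, a floor of 32, a filter of 6 arrays, the mean of a gene's probe sets and array weights, left each count within 1.5 times its value where they gave one. Of 120 named genes that passed over the mean, 104 passed under every alternative, 16 missed the threshold under at least 1, and 0 changed sign. The weakest was Tpm2 with probe sets of the suffixes _s, _x and _a left out (log2 0.07, adjusted p = 0.850).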
